A study of Caenorhabditis elegans with 2 samples.

Results

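The genes described here are the 6 worm members of the Mad, Max, Mondo and TFEB families of basic helix-loop-helix leucine zipper factors: mdl-1, mxl-1, mml-1, mxl-2, mxl-3 and hlh-30. They were found on the array by symbol, through every probe set whose platform annotation gives exactly 1 gene symbol and gives one of these 6. These are 6 of the 17118 genes so named, read by 9 of the 22625 probe sets. hlh-30 has 3 of them, mml-1 has 2 and each of the other genes has 1. None of the 887 probe sets with several symbols names any of the 6 genes. The genes were chosen with earlier results of the same arrays known, so their values below are a description and carry no test. The set was selected on gene family with the differences between the arrays in view, among them those of mdl-1, mxl-3 and hlh-30.

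Whole hermaphrodites of the wild-type strain N2 were grown at 20 °C from the first (L1) to the fourth larval stage (L4) on nematode growth medium with Escherichia coli OP50 as food. The control worms received nothing else. The exposed worms had 2 µg/mL of pOPC7 in the medium for the same 48 hours, a gallate of an oligomeric proanthocyanidin trimer isolated from seeds of Vitis vinifera. Each condition is 1 deposited column of microarray values from amplified RNA, called 1 array here. Whether a column pools several hybridisations is not stated. There is therefore no replicate, no p-value and no error from repeats for any value, and 1 array per group is the main limit on precision. The RNA came from whole animals, in which fewer cells of a type and less RNA per cell cannot be told apart.

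Factors of this superfamily bind DNA as pairs, typically at short E-box sequences. In the worm, which has no recognised Myc gene, MDL-1 is the Mad-like factor and pairs with the Max-like MXL-1, and MML-1 is the Mondo-like factor and pairs with the second Max-like protein, MXL-2. MML-1 and MXL-2 are needed for long life in several long-lived worm mutants, while loss of MDL-1 or MXL-1 lengthens life, and mdl-1 is a known target of the insulin-pathway factor DAF-16. MXL-3 holds lysosomal lipase genes low in fed worms, and HLH-30, the worm TFEB, switches on autophagy and lysosomal lipase genes when food is lacking.

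The gene of the Mad-like factor, mdl-1, differed more between the arrays than any other member. Its probe set, 193723_s_at, read 8.63 on the control array and 9.84 on the pOPC7 array, in log2 units of the authors' RMA values. The pOPC7 array was thus higher by 1.21 log2 units, or 2.32-fold. This was the highest of the 10445 differences among probe sets that name 1 gene and have a mean over both arrays of at least 6 log2 units, called measured from here on. The next highest of them was 1.18. Among the 1478 other singly named probe sets within 0.5 log2 units of its mean level, none had a higher difference, and their differences had a median of 0.03 and an SD of 0.19. The suffix _s_at marks a probe set whose probes match more than 1 transcript. The annotation gives it to mdl-1 alone, for which RefSeq (WBcel235) lists 1 transcript. No other probe set names mdl-1, so the array holds no second reading of the gene.

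The partner, mxl-1, differed little between the arrays. Its probe set 193662_at read 8.19 in the control and 8.34 in exposed worms, a difference of 0.15 or 1.11-fold. Of the 2469 singly named probe sets at a like level, 27.1% had a higher difference. The difference of mdl-1 exceeded that of mxl-1 by 1.07 log2 units, a gap between chosen genes that has no replicate check.

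**Figure D1:**
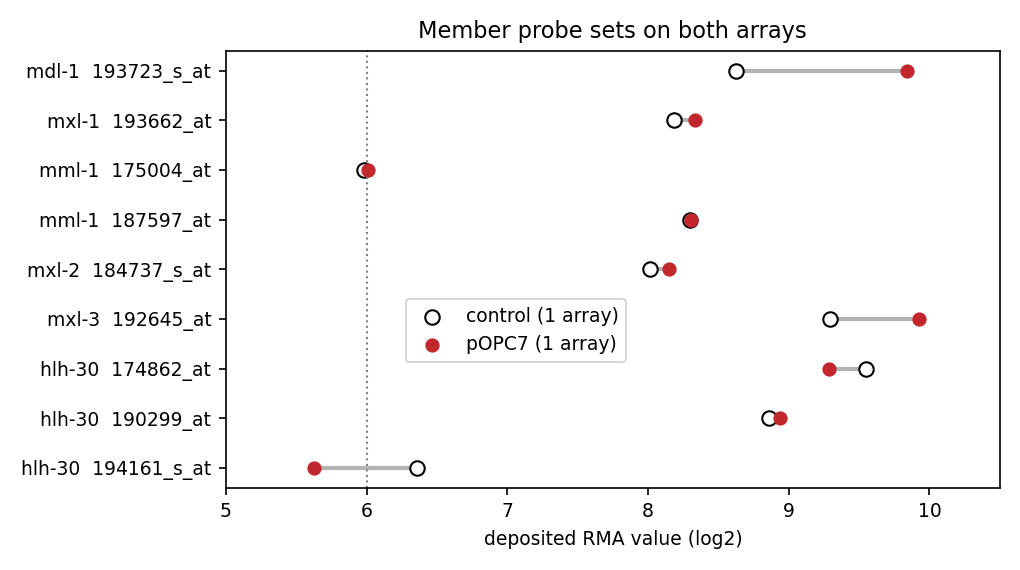
Deposited log2 RMA values of the 9 probe sets of the 6 genes, one line per probe set, with the control array as open circles and the pOPC7 array as filled circles, 1 array each. The dotted line marks the measured level of 6. mdl-1 shows the widest gap (8.63 and 9.84), mxl-3 is also higher with pOPC7 (9.29 and 9.92), and the 3 hlh-30 probe sets lie in both directions.

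The Mondo-like pair showed small differences. For mml-1, probe set 187597_at read 8.30 on the control array and 8.31 on the pOPC7 array, a difference of 0.00. Its second probe set, 175004_at, read 5.98 and 6.01, a difference of 0.02 at a mean of 5.995, just below the measured level. The readings of mml-1 were 0.02 apart as deposited, and both turned slightly negative after centring on the median of all measured probe sets (-0.03 and -0.02). They were 0.11 apart and of opposite sign (-0.04 and 0.07) when the median of probe sets with neighbouring numbers was subtracted. For mxl-2, probe set 184737_s_at read 8.02 in the control and 8.15 in exposed worms, a difference of 0.13 or 1.10-fold. At a like level 31.1% of 2624 probe sets had a higher difference than mxl-2. The difference of mxl-2 was above that of the measured mml-1 probe set by 0.13 log2 units.

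The fed-state lipase repressor gene mxl-3 was the other member beyond 1.5-fold. Probe set 192645_at read 9.29 on the control array and 9.92 on the pOPC7 array. The difference of 0.63 log2 units, or 1.55-fold, placed it at rank 49 from the top of the 10445 measured probe sets. Bright probe sets vary less, and of the 1144 others at a like level 2 had a higher difference. This probe set has the plain _at suffix, which marks probes designed for a single transcript. The 1.5-fold limit is 0.585 log2 units, and mxl-3 lies close to it, with 0.59 after centring and 0.62 with the trend on level removed. It was 0.58 and short of the limit when the median of the probe sets with neighbouring numbers was subtracted.

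The 3 probe sets of the TFEB gene hlh-30 did not give a single answer. Probe set 174862_at read 9.55 in the control and 9.28 in exposed worms, a difference of -0.26 or 0.83-fold. Probe set 190299_at read 8.86 and 8.94, a difference of 0.08. The dimmest, 194161_s_at, read 6.36 in the control and 5.63 in exposed worms, a difference of -0.73 or 0.60-fold. Its mean of 5.992 is just below the measured level, and of the 2552 singly named probe sets at that level 9 had a lower difference. One hlh-30 probe set was thus higher and the others lower with pOPC7, over a range of 0.81 log2 units. The mean of all 3 gives -0.31 for the gene, and the mean of the 2 measured ones gives -0.09. RefSeq lists 10 transcripts for hlh-30 against 1 or 2 for each of the other members. Which of them each probe set reads was not analysed here.

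**Figure D2:**
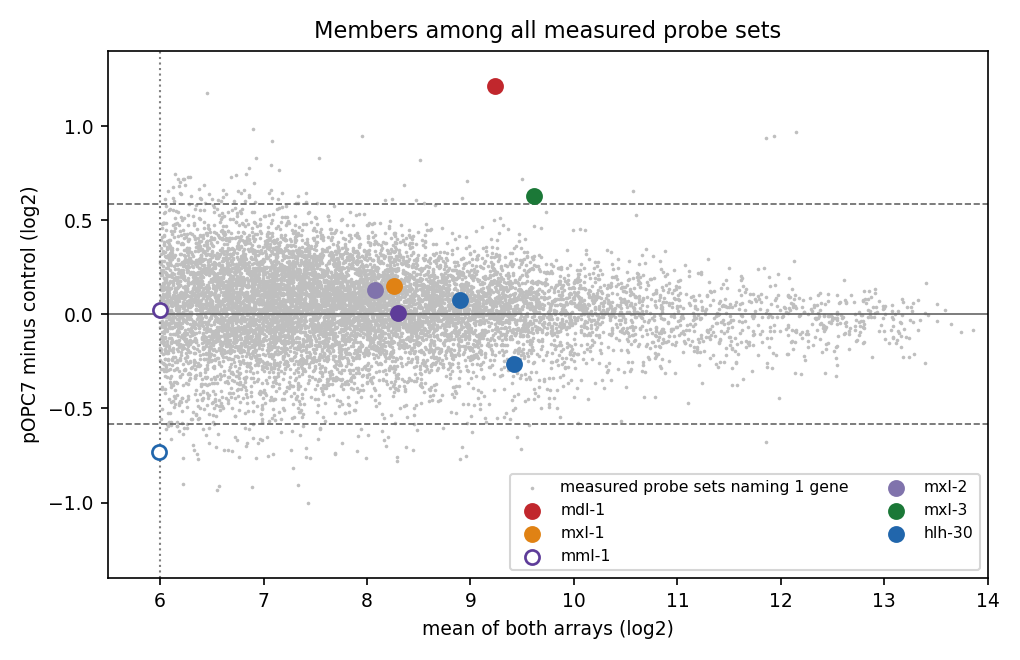
Difference between the pOPC7 and control arrays (log2, vertical axis) against the mean of both arrays (log2, horizontal axis) for the 10445 measured probe sets that name 1 gene (grey) and the 9 member probe sets (coloured by gene). Open symbols are members below the measured level (dotted line), and dashed lines mark 1.5-fold. mdl-1 is the highest point of the plot and mxl-3 lies just above the upper dashed line, while mxl-1, mxl-2 and mml-1 lie within the grey cloud.

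Of the 9 probe sets, 7 were measured, and 2 of these (mdl-1 and mxl-3) were higher by at least 1.5-fold with pOPC7. Over all measured probe sets 0.737% were higher by that much. At 2-fold the count was 1 of the 7 (mdl-1) against 0.0191% higher and 0.00957% lower among all measured probe sets. None of the 7 was lower by 1.5-fold, against 0.814% of all measured probe sets. Of the 7, 6 had a difference above 0, where 57.6% of all measured probe sets did. The median difference was 0.13 over the 7 and 0.04 over all measured probe sets. With all 9 counted, 2 were higher by 1.5-fold and 1, an hlh-30 probe set, was lower, against 1.98% and 1.02% of the 20766 probe sets that name 1 gene at any level. These counts include the values that led to the choice of the genes, and nothing is read from them.

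The order of the differences, from the highest, was mdl-1, mxl-3, mxl-1, mxl-2, mml-1 and hlh-30, by gene means. A scale for single readings comes from the 1721 genes that have at least 2 measured probe sets. Their first and second probe sets disagreed by a median of 0.21 log2 units. The SD of the disagreement, divided by the square root of 2, gives 0.22 per probe set. These pairs include 1183 that join a low and a high probe set number, described below. The SD covers disagreement between probe sets of the same 2 arrays and not the spread between worm cultures, and it gives no test of the order. The difference of mdl-1 was 0.59 above that of mxl-3, and those of mxl-1, mxl-2 and mml-1 lay closer together than the SD. The gap of 0.34 between the measured probe sets of hlh-30 was matched or exceeded in 29.3% of those genes.

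Probe set number moved with the difference, and it touches hlh-30 and mml-1. The number 176000 ends the last block of 1000 probe set numbers with a median difference below 0. Measured probe sets numbered below it had a median difference of -0.06 (2474 probe sets), and those above it had 0.06 (7971 probe sets). In the 1183 genes whose first measured probe set has a low number and whose second has a high one, the low-numbered reading was below the other by a median of 0.19 log2 units, and it was the lower of the pair in 74.5%. The hlh-30 probe set 174862_at belongs to the block of numbers from 174000, whose median of -0.15 was the lowest of all blocks. With that median subtracted its difference was -0.11 in place of -0.26. The dim hlh-30 probe set 194161_s_at has a high number, and its difference was -0.77 after the same step. For mdl-1 the value was then 1.15. The part of the numbering in the hlh-30 values was not tested beyond this.

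**Figure D3:**
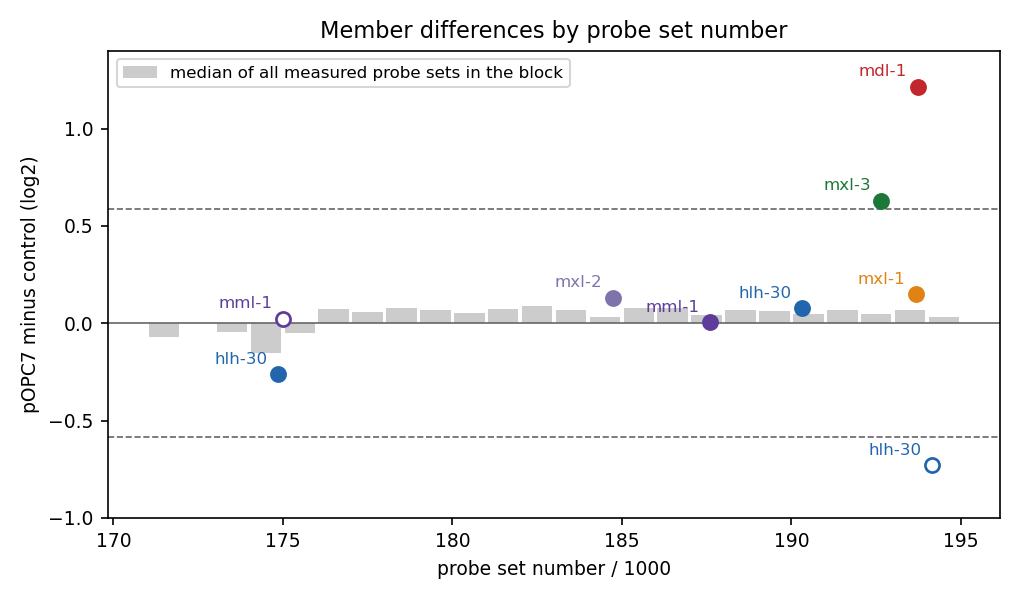
Difference between the arrays (pOPC7 minus control, log2) against the probe set number divided by 1000. Grey bars are medians of all measured probe sets in each block of 1000 numbers, points are the 9 member probe sets (open if below the measured level), and dashed lines mark 1.5-fold. The bar of the block from 174000 is lowest (-0.15), and the hlh-30 probe set at -0.26 lies in it.

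**Figure D4:**
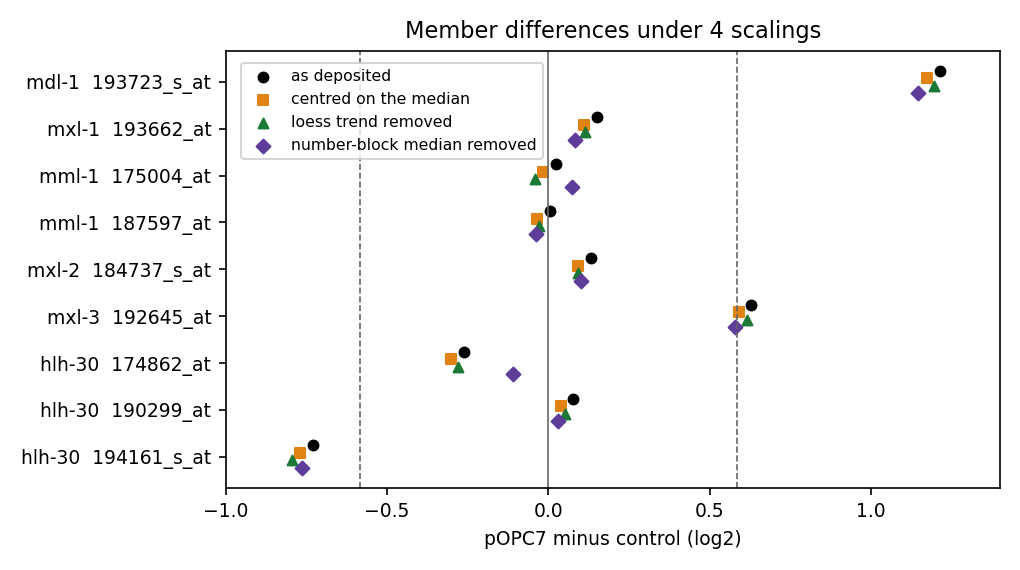
Difference between the arrays (pOPC7 minus control, log2) for each member probe set as deposited, after centring on the median, after removal of a loess trend on level, and after subtraction of the number-block median. Dashed lines mark 1.5-fold. mdl-1 stays between 1.15 and 1.21, mxl-3 lies at the 1.5-fold line (0.58 to 0.63), and the small values of mml-1 fall on both sides of 0.

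The probe sets most like those of mdl-1 and mxl-3 were found by the distance between their values on the 2 arrays. With 2 values per probe set this is likeness in level and difference only. Nearest to mdl-1 were cth-1 (distance 0.50, difference 0.51), C44B7.5 (0.51 and 0.50) and C53C11.4 (0.52 and 0.72). All 3 were higher with pOPC7, but by less than mdl-1. Nearest to mxl-3 were nurf-1 (distance 0.11, difference 0.47), R107.5 (0.16 and 0.46) and again C53C11.4, at a distance of 0.16.

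Genes that the factors act on, or that act on them, were described as gene means over singly named probe sets. Over all 8059 measured genes 0.732% were higher and 0.211% lower by at least 1.5-fold, 57.8% were above 0, and the median difference was 0.04. The lysosomal lipases release fatty acids, and they include genes that MXL-3 and HLH-30 control. Of the 8 lipl genes 2 were measured. Neither of the 2 differed by 1.5-fold, which is near the shares over all measured genes, so nothing is read from it. lipl-5 read 9.97 in the control and 9.95 with pOPC7, and lipl-7 read 7.19 and 6.96. Of the others, lipl-1 read 5.19 and 5.47 and lipl-3 read 5.09 and 5.30, so both were below the measured level, where no direction is read. The differences of lipl-2 (-0.17), lipl-6 (-0.16), lipl-4 (0.25) and lipl-8 (0.05) were also read below the measured level.

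Autophagy genes, many of them HLH-30 targets, lay on both sides of 0. Of 26 genes 21 were measured, 9 were above 0 and 12 below, none passed 1.5-fold, and the median was -0.03. The shares over all measured genes were 57.8% above 0, 0.732% higher and 0.211% lower by 1.5-fold, so nothing is read from these counts. As deposited, the largest differences were those of epg-9 (-0.50), epg-3 (0.37), atg-13 (-0.34) and atg-16.2 (0.33). EPG-9 is a partner of the ULK-type initiation kinase, and EPG-3 acts on the forming autophagosome. The epg-9 probe set has a number in the block from 174000. With block medians subtracted the values were -0.34 for epg-9, 0.34 for epg-3, -0.29 for atg-13 and 0.38 for atg-16.2. The ubiquitin-like autophagosome protein gene lgg-1 was bright and nearly equal, at 11.20 and 11.19. The cargo receptor gene sqst-1 differed by 0.09, with its probe sets at -0.07 and 0.25. Of 48 lysosomal and proton-pump genes 32 were measured, with 15 above 0, 17 below, none past 1.5-fold and a median of -0.02. Beside the same shares, nothing is read from the counts of this list either. The proton pump subunit gene vha-5 (0.54) and the lysosomal nuclease gene nuc-1 (0.37) were highest, and the pump subunit genes vha-7 (-0.27) and vha-15 (-0.25) lowest.

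The kinase pathways that report nutrients to these factors were read through 18 measured of 22 TOR and AMPK genes. Of these, 9 were above 0 and 9 below, with a median of 0.00. None passed 1.5-fold, against 0.732% higher and 0.211% lower over all measured genes, so nothing is read from that count. The Rag GTPase genes raga-1 (0.30) and ragc-1 (0.22), which bring TOR to the lysosome, were highest. The folliculin gene flcn-1 differed by -0.20 and the Rictor gene rict-1 by 0.17, the latter from a measured probe set at -0.18 and one below the measured level at 0.51. let-363, the TOR kinase gene, differed by -0.07, with probe sets of opposite sign (-0.35 and 0.22). xpo-1, which exports HLH-30 from the nucleus, differed by -0.06 (-0.20 and 0.08). The lower reading of each has a number in the block from 174000, and with block medians subtracted the pairs were -0.20 and 0.15 for let-363 and -0.05 and 0.03 for xpo-1.

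The insulin pathway, which controls mdl-1 through DAF-16, had 10 measured of 13 core genes, 4 above 0, 6 below, none past 1.5-fold and a median of -0.07. Among those below 0 were the PI3-kinase adaptor gene aap-1 (-0.24), akt-1 (-0.13) and age-1 (-0.12). The measured probe sets of akt-1 (-0.28 and 0.03) and of age-1 (-0.29 and 0.055) had opposite signs. In each pair the lower reading has a probe set number below 176000. daf-16 itself differed by 0.00 over 4 probe sets that ranged from -0.41 to 0.24, and the receptor gene daf-2 by 0.10 (from -0.08 to 0.40). Of 20 other genes known to be activated by DAF-16, 13 were measured, with 8 above 0, 5 below and a median of 0.08. That median was -0.01 with a mean of at least 7. The chaperone gene hsp-70 (0.61) and the desaturase gene fat-7 (0.59) passed 1.5-fold as deposited, and neither did after centring. hsp-16.2 (0.35) was next, and dod-3 (-0.30) was lowest. The means of hsp-70 (6.40), fat-7 (6.28) and hsp-16.2 (6.36) were close to the measured level of 6. The shares over all measured genes were 57.8% above 0, 0.732% higher and 0.211% lower by 1.5-fold. Nothing is read from the counts of the insulin and DAF-16 lists.

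**Figure D5:**
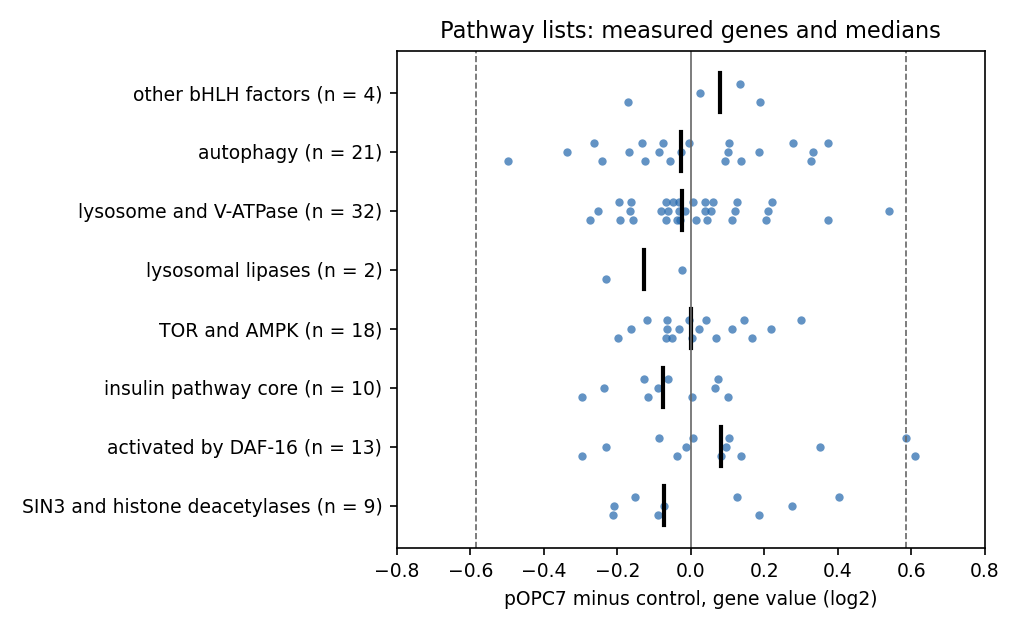
Differences between the arrays (pOPC7 minus control, gene means, log2) of the measured genes in 8 lists around the factors, 1 point per gene, with a black bar at each list's median and dashed lines at 1.5-fold. Points are staggered vertically for legibility only. Only hsp-70 and fat-7, in the DAF-16 list, reach the upper dashed line among the 109 different genes shown.

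Mad factors repress through SIN3 and histone deacetylases in mammals. Of 11 worm genes of this kind 9 were measured, 4 above 0 and 5 below, none past 1.5-fold, with a median of -0.07. sin-3 differed by 0.18 (9.37 and 9.56), and the largest differences were those of the class II deacetylase gene hda-4 (0.40), athp-1 (0.28), lin-53 (-0.21) and rba-1 (-0.21). Of the 28 other helix-loop-helix genes with a value 4 were measured, and these were hlh-1 (0.19), the worm MyoD, hlh-11 (-0.17), aha-1 (0.13), the partner of several PAS-domain factors, and the SREBP gene sbp-1 (0.03). None of these 4 passed 1.5-fold. Over all measured genes 0.732% were higher and 0.211% lower by that much, so nothing is read from the count of either list.

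Markers of tissues and stage were set beside the members. Over 7 marker lists (intestine, muscle, neurons, hypodermis and cuticle, germ line, sperm, oocyte and yolk) none of the 89 measured gene means differed by 1.5-fold. Over all measured genes 0.732% were higher and 0.211% lower by that much, so nothing is read from this count. The germ line gene gld-1, at -0.31, had measured probe sets at -0.70 and 0.08. The lower of them has a number in the block from 174000. With block medians subtracted they were at -0.55 and 0.01. The list medians ran from -0.07 (sperm) to 0.19 (hypodermis and cuticle). The latter was 0.00 with a mean of at least 7 and 0.05 with the brightest probe set of each gene. In that list, 7 of 11 measured genes were above 0, led by grl-10 (0.48) and rol-6 (0.45), with col-12 lowest (-0.44). The summed linear level of each of the 7 lists with pOPC7 was between 0.955 and 1.02 times that of the control. The lowest ratio was that of hypodermis and cuticle. Against the label of L4 hermaphrodites, 16 of 18 sperm genes were measured (up to 13.25) and none of 10 male genes was. The summed level of the male genes with pOPC7, all below the measured level, was 1.24 times that of the control. All 17 oocyte and yolk genes, best known from adults, were measured too, with the yolk gene vit-1 at 10.22 in the control and 9.83 with pOPC7. The part of tissue make-up or larval timing in the values of mdl-1 and mxl-3 was not tested.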

How the data were processed

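The deposited table holds 1 log2 value per probe set and array. The authors made these deposited log2 values with RMA, a method that corrects background, applies quantile normalisation and combines the probes of a set, per the submitters' processing notes. No source used here gives its version or says whether a column pools several hybridisations. The log2 scale was read from the values (1.78 to 13.90, column medians 5.94 and 5.99). Probe sets were named by the platform annotation, and the 6 genes were matched to RefSeq by gene identifier. Probe sequences and genome positions were not used here.

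The difference is pOPC7 minus control. Named genes were the members, the 4 measured genes with the largest absolute difference in each list, 13 fixed names (hif-1 had no singly named probe set; 1 gene of the insulin list, which the rule would name, is not reported here) and the 3 nearest probe sets of mdl-1 and mxl-3. Of 295 listed genes 274 had a value. The members, lists and limits were chosen with earlier results of these data known. Alternatives were centring, a loess trend (span 0.3), other level limits, other probe sets for a gene and, chosen after seeing the data, medians of blocks of 1000 probe set numbers and the bound of 176000. Code was tested on simulated data. Python 3.11.15, pandas 2.3.3, numpy 2.4.6, statsmodels 0.14.6 and matplotlib 3.10.9 were used.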

Additional observations from a re-analysis of the deposited data

How the results depend on the processing

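Under centring, loess and number-block medians, member probe sets moved by at most 0.154 log2 units, less than the SD of 0.22 for 1 probe set. mdl-1 passed 2-fold in each of these, mxl-3 missed 1.5-fold with number-block medians (0.58), and the mml-1 values near 0 changed sign. Gene means moved most for hlh-30, from -0.34 after centring to -0.09 with plain _at or measured probe sets only. With plain _at probe sets only, mdl-1 and mxl-2 have no value. Counts over all measured probe sets depended on the limit and scaling. The 77 higher by 1.5-fold became 157, 31 and 412 with a mean of at least 5, of at least 7 and no limit, 51 after centring, 45 with loess and 47 with plain _at probe sets. The 85 lower became 43 with a mean of at least 7, 211 with no limit and 17 when genes were counted. The 2 higher by 2-fold became 4 and 1 with means of at least 5 and 7, 17 with no limit and 0 with plain _at probe sets. The 1 lower by 2-fold became 3 with a mean of at least 5, 7 with no limit and 0 for genes. Of 15 list medians 11 took both signs over the settings, so no direction is read from the medians given above for those lists. That of the SIN3 and histone deacetylase list, for example, ran from -0.14 to 0.13. Causes were not tested. No paired analysis was possible because each condition has 1 array, and leaving out a replicate was not possible either.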

Other observations

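The genes next to the members in the WBcel235 gene order gave 12 protein-coding neighbours, of which 10 had a value and 4 were measured. Of the 10, 5 were above 0. The share over all measured genes was 57.8%, but it covers measured genes only and most of the 10 were not, so nothing is read from this. Their differences ran from -0.42 to 0.59, and both of these ends were read below the measured level. Of the neighbours of mdl-1, R03E9.2 was measured and differed by 0.42 (6.35 and 6.77). The other, abts-4 (5.81 and 6.03, a difference of 0.22), was below the measured level, where no direction is read. Of the neighbours of mxl-3, ptr-24 was measured and differed by 0.25, and C49F8.15 (-0.22) was below the measured level. The neighbour of mml-1 with the highest difference, T20B12.4 (0.59), was dim on both arrays (2.68 and 3.27).

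As deposited, 445 of the 22625 probe sets read exactly the same on both arrays. None of the 9 member probe sets is among them, but 1 of the 4 daf-2 probe sets is, at 8.94 on both arrays.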
